A study of Homo sapiens with 96 samples.

Results

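The hypoxia and glycolysis genes are 38 named genes, and 37 of them were measured, by 65 of the 22930 probe sets on the arrays. They were taken by symbol, as the probe sets annotated to the listed genes. The list of genes itself was chosen with earlier results of these data known. ANGPTL4 had no probe set listed to it. A total of 16 genes had several probe sets and 21 had 1, and where there were several, the 1 whose values had the largest SD over all 96 arrays stood for the gene. The whole table gave 11940 genes by the same rule.

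The cells were MDA-MB-231, an established human breast cancer line, and the agents were EGF, a growth factor, and U0126, an inhibitor of the kinase MEK, which activates ERK. Cells at 80% confluence stood in low serum for 24 h, had 10 uM U0126 or its vehicle DMSO for 30 min where the arm included them, and received 10 ng/ml EGF at 0 h, per the labels. The arms were U0126 with EGF (U0126), DMSO with EGF (DMSO-EGF), EGF alone (EGF) and untreated cells (control), sampled at 0.5, 1, 4, 8, 12, 24 and 48 h, which were joined into windows called early for 0.5 and 1 h, middle for 4, 8 and 12 h, and late for 24 and 48 h. The 3D culture was 1 series, 3D04, with 1 array per arm and time, and at 0 h 2 control, 1 DMSO and 1 U0126 array. The 2D culture was 2 series, 2D03 and 2D04, each laid out in the same way, so a late comparison set 2 arrays against 2 in 3D and 4 against 4 in 2D. All 3 series were of 1 cell line, and culture and series cannot be told apart in any difference between 3D and 2D. The labels do not say whether repeats were separate cultures, so p-values measure the spread between these arrays. In 3D no arm had a second array at any time after 0 h, so arrays of different times stood in for repeats. The standard errors and p-values of 3D thus mix any change of a difference with time into the spread between arrays. They do not measure the spread between repeats of 1 condition.

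Cells sense low oxygen through the HIF transcription factors. With oxygen present, prolyl hydroxylases of the EGLN family mark the alpha subunits HIF1A and EPAS1 for destruction, and when oxygen is scarce the stable alpha subunit pairs with ARNT and binds hypoxia response elements. Its targets raise glucose uptake and glycolysis, turn pyruvate away from mitochondria, recycle mitochondria and reshape matrix and vessels. HIF1A is controlled mostly as a protein, which arrays do not measure.

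Promoters of 4 genes with large differences between arms and of LDHA are shown first, because the elements that HIF binds share a short core. Promoters were taken from RefSeq (GRCh38.p14) as the 250 bases before and 50 after a transcript start, and 33 of the 38 listed genes had an entry, with 53 promoters. The letters searched were ACGTG and GCGTG, the core forms of the hypoxia response element, on both strands, and CACGTG, an E-box, which contains ACGTG. Capitals mark the cores found on either strand, so the reverse forms CACGT and CACGC are also in capitals.
TMEM45A, chr3:100492369-100492668, plus strand: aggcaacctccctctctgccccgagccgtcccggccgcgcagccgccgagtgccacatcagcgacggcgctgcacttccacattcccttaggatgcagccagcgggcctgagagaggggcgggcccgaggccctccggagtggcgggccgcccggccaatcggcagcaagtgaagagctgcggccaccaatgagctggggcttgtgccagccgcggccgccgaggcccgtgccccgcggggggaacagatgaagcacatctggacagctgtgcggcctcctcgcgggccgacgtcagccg
LOX, chr5:122078210-122078509, minus strand: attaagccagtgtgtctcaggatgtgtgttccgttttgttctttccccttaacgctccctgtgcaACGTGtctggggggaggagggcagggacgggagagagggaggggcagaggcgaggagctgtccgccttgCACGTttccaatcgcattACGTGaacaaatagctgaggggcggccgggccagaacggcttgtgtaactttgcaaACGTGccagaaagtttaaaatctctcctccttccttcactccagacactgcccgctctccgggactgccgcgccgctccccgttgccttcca
ENO2, chr12:6914330-6914629, plus strand: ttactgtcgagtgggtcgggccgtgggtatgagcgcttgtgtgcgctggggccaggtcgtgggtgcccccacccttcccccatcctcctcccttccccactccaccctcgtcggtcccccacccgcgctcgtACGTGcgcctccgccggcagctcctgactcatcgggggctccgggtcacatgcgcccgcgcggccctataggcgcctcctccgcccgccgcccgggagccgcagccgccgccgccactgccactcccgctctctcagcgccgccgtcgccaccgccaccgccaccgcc
BNIP3, chr10:131981874-131982173, minus strand: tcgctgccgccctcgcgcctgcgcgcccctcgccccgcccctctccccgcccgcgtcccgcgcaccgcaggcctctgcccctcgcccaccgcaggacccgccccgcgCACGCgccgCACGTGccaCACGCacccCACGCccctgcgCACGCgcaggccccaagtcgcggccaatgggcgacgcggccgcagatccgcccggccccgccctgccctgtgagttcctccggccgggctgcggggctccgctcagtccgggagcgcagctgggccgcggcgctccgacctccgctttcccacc
LDHA, chr11:18394313-18394612, plus strand: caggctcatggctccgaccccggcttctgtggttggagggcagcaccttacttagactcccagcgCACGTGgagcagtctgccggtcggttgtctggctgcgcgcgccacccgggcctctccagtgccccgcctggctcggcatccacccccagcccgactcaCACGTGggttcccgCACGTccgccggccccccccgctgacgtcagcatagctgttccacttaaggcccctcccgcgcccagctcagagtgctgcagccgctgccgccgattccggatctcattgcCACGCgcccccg
The marked stretches in the promoters shown were 5 in BNIP3, 4 in LDHA, 4 in LOX and 1 in ENO2. A CACGTG counts once, although it holds ACGTG on both strands, and TMEM45A had neither form in this window. LOX and LDHA had other promoters, not shown, with 2 marked stretches in each of those of LOX and 1 in that of LDHA. At least 1 core was present in 73.6% of the 53 promoters of listed genes, against 48.4% of all 35116 promoters of the table. ACGTG was in 43.4% of the promoters of listed genes and in 21.4% of all promoters. A match is only a run of letters and was not tested as a binding site.

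Without any treatment, most of these genes rose with time in 3D culture. At 24 and 48 h, 27 of the 37 genes were higher in 3D controls than in their 0 h controls and 0 were lower, with a median log2 difference of 0.81, where the median of all genes was -0.01 and 21.7% of all genes were called at an adjusted p under 0.05 and 9.56% of all genes as higher. The largest differences were those of TMEM45A, a transmembrane protein gene induced by hypoxia, at 9.65-fold (log2 3.27, SE 0.45), SPAG4, a nuclear envelope protein gene, at 7.78-fold (log2 2.96, SE 0.40), LOX, the lysyl oxidase that cross-links collagen, at 6.08-fold (log2 2.60, SE 0.44), and NDRG1, a stress-induced gene, at 5.60-fold (log2 2.48, SE 0.35). Adjusted p-values of these 4 genes in limma lay between 7.4e-05 and 0.00047. In 2D controls the same comparison called 5 of the 37 genes higher and 0 lower (4.16% of all genes were called, 2.24% as higher), with a median of 0.11, and 1 was called without the 48 h control array of 2D04. The difference between the cultures was itself tested, and 20 of the 37 genes had a larger change in 3D and 0 in 2D (6.91% of all genes were called, 3.43% as larger in 3D). At 0 h, where culture and series again coincide, the mean of 3D minus that of 2D controls was -2.17 for ADM and 1.45 for ALDOC. VEGFA stood at -0.34 and -0.39 in 3D, against 1.37 and 1.76 in 2D03 and -0.11 and -0.10 in 2D04, and LOX at 0.12 and 0.12 in 3D, against 2.15 and 2.31 in 2D03 and 1.04 and 1.45 in 2D04, so the 2D series differed from each other. Without the 48 h control array of 3D, 19 genes were called in 3D and 11 differed between the cultures.

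**Figure D1:**
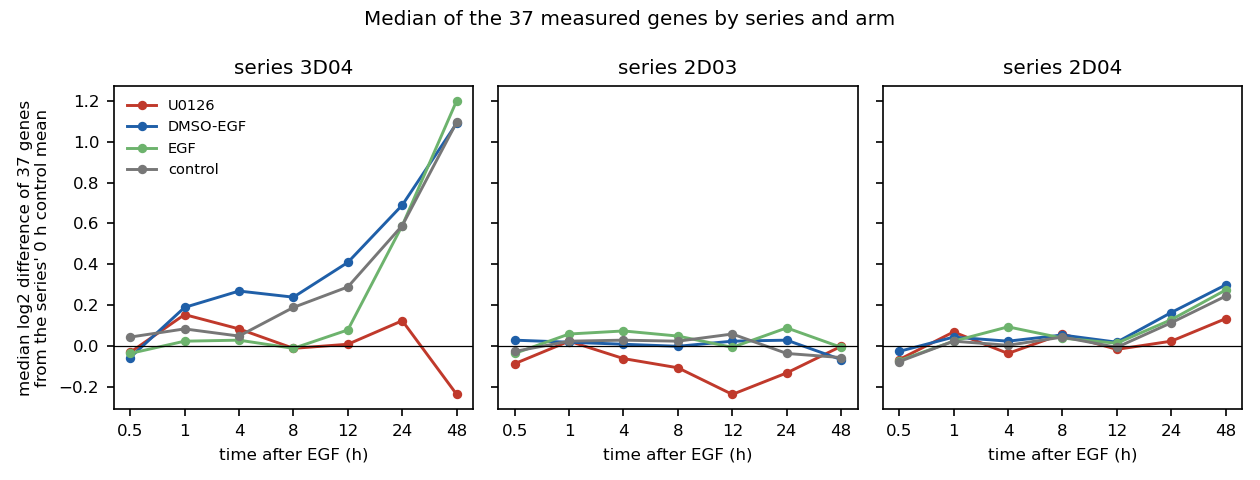
Median log2 difference of the 37 genes from the mean of the 0 h controls of the same series, by time after EGF, in 3D04, 2D03 and 2D04; each point is the median over 37 genes on 1 array and lines join arrays of 1 arm. At 48 h in 3D04 the U0126 array lies at -0.24, and the DMSO-EGF, EGF and control arrays lie at 1.09, 1.20 and 1.10.

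With U0126, most of these genes were below DMSO-EGF in late 3D culture. At 24 and 48 h, 28 of the 37 genes were lower and 1 higher in U0126 than in DMSO-EGF arrays, with a median log2 difference of -0.74 (all genes 0.03). The inhibitor changed much of the transcriptome in this window, with 39.5% of all genes called and 18.4% called as lower, so the members' share is read against that. The difference was negative for 36 of the 37 genes. The U0126 and DMSO-EGF arrays did not overlap for 31 of the 37 genes, HK2 included. The same share over all genes was not counted, so this number is not read as a result about these genes. In 2D the late comparison called 2 genes higher and 3 lower (median -0.06, 12.4% of all genes called). That fit did not pair the 2D repeats by series, and with the pairing, given below, more of these genes were called (24.7% of all genes). U0126 minus DMSO-EGF was more negative in 3D than in 2D for 25 of the 37 genes and more positive for 1, HK2 (10.5% of all genes called, 6.02% as more negative in 3D). Without the 48 h U0126 array of 3D, 23 genes were called in 3D and 13 between the cultures.

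As a check of the inhibitor, DUSP6 and EGR1, genes switched on by ERK, were both lower with U0126. In the late window DUSP6 differed by log2 -2.40 (SE 0.29) in 3D and -2.60 (SE 0.21) in 2D, and the difference between the cultures was 0.20 (SE 0.34, limma adjusted p = 0.83). EGR1 differed by -4.27 in 3D and -3.31 in 2D, with a difference of -0.95 (SE 0.30, limma adjusted p = 0.030). In the early window DUSP6 differed by -2.89 (SE 0.29) in 3D and by -0.755 (SE 0.21) in 2D, where it was not called. The cultures then differed by -2.135 for DUSP6 (SE 0.34, limma adjusted p = 0.00018). Early values of EGR1 were -2.265 in 3D and -1.615 in 2D, and their difference was not called.

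**Figure D2:**
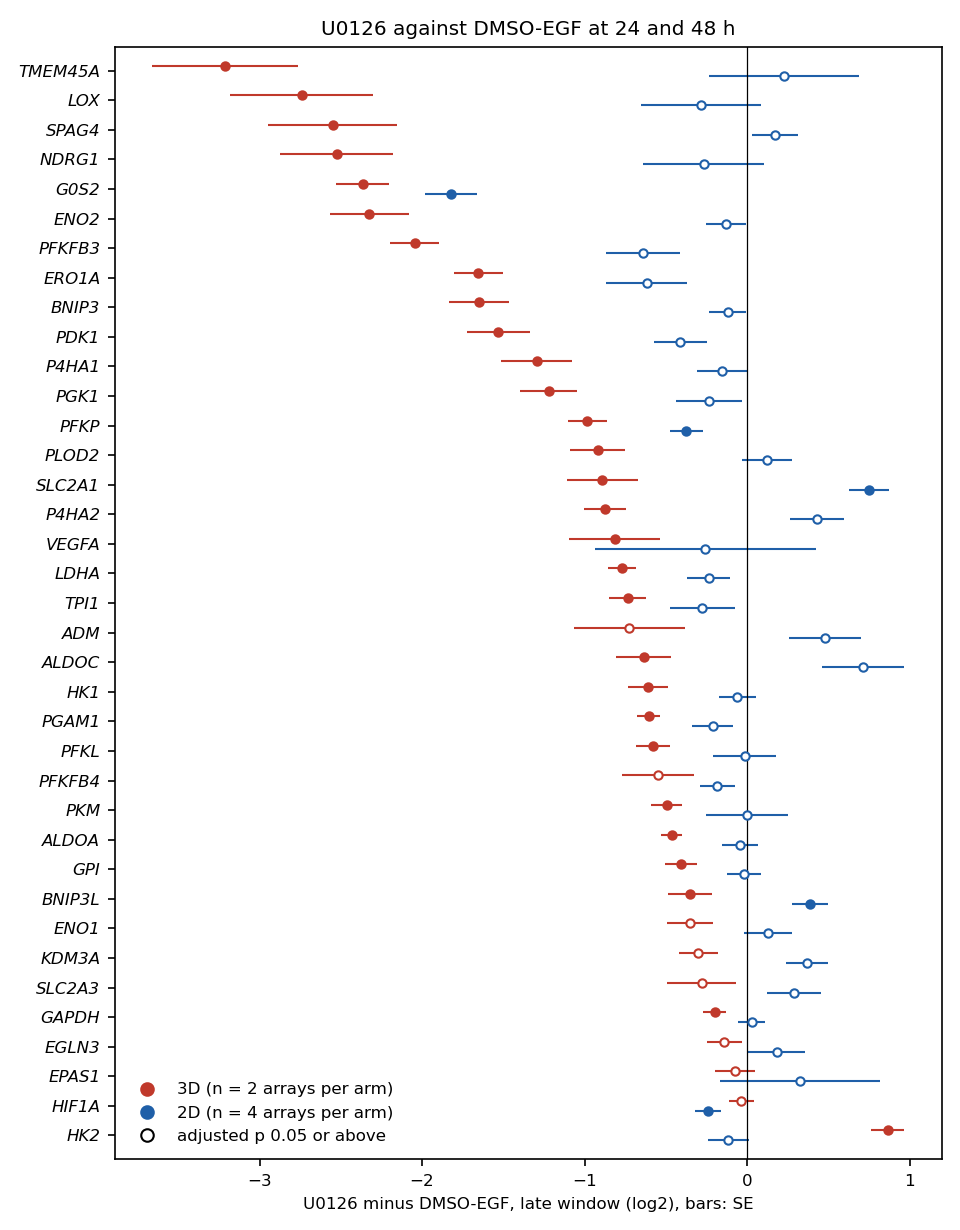
U0126 minus DMSO-EGF (log2, with SE) over 24 and 48 h for the 37 measured genes, 3D above 2D in each pair; filled symbols have an adjusted p under 0.05. In 3D 36 genes lie left of 0 and HK2 lies at 0.87, and in 2D values lie between -1.82 (G0S2) and 0.75 (SLC2A1).

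The 4 genes with the largest late differences had similar values over time. TMEM45A, counted from the 0 h control mean of its own series, stood at 0.74 and -0.26 in U0126 arrays at 24 and 48 h, against 3.10 and 3.80 in DMSO-EGF, 2.04 and 4.18 in EGF and 2.52 and 4.02 in control arrays. Arrays of the other 3 arms were all above those of U0126. LOX stood at 0.64 and -0.14 in U0126 arrays, against 2.47 and 3.51 in DMSO-EGF, 1.20 and 3.56 in EGF and 1.48 and 3.73 in control arrays. SPAG4 stood at 1.13 and 0.02 in U0126 arrays, against 2.83 and 3.42 in DMSO-EGF, 2.28 and 3.76 in EGF and 2.36 and 3.57 in control arrays. In each case the U0126 array at 48 h was near the 0 h controls, and the arrays of the other 3 arms were far above them. NDRG1 stood at 0.66 and -0.24 in U0126 arrays, against 2.34 and 3.14 in DMSO-EGF, 1.84 and 3.12 in EGF and 1.95 and 3.03 in control arrays. The late differences between U0126 and DMSO-EGF were -3.21 for TMEM45A (9.25-fold lower, SE 0.45), -2.74 for LOX (6.68-fold lower, SE 0.44), -2.55 for SPAG4 (5.86-fold lower, SE 0.40) and -2.53 for NDRG1 (5.76-fold lower, SE 0.35). With 1 array left out these ranged from -4.43 to -1.99 for TMEM45A, -4.07 to -1.41 for LOX, -3.65 to -1.45 for SPAG4 and -3.50 to -1.55 for NDRG1, and each stayed called. The smallest value of each came without the U0126 array at 48 h. Limma adjusted p-values of these 4 lay between 7.2e-06 and 4.4e-05, and in 2D none of the 4 was called (log2 -0.29 to 0.23).

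**Figure D3:**
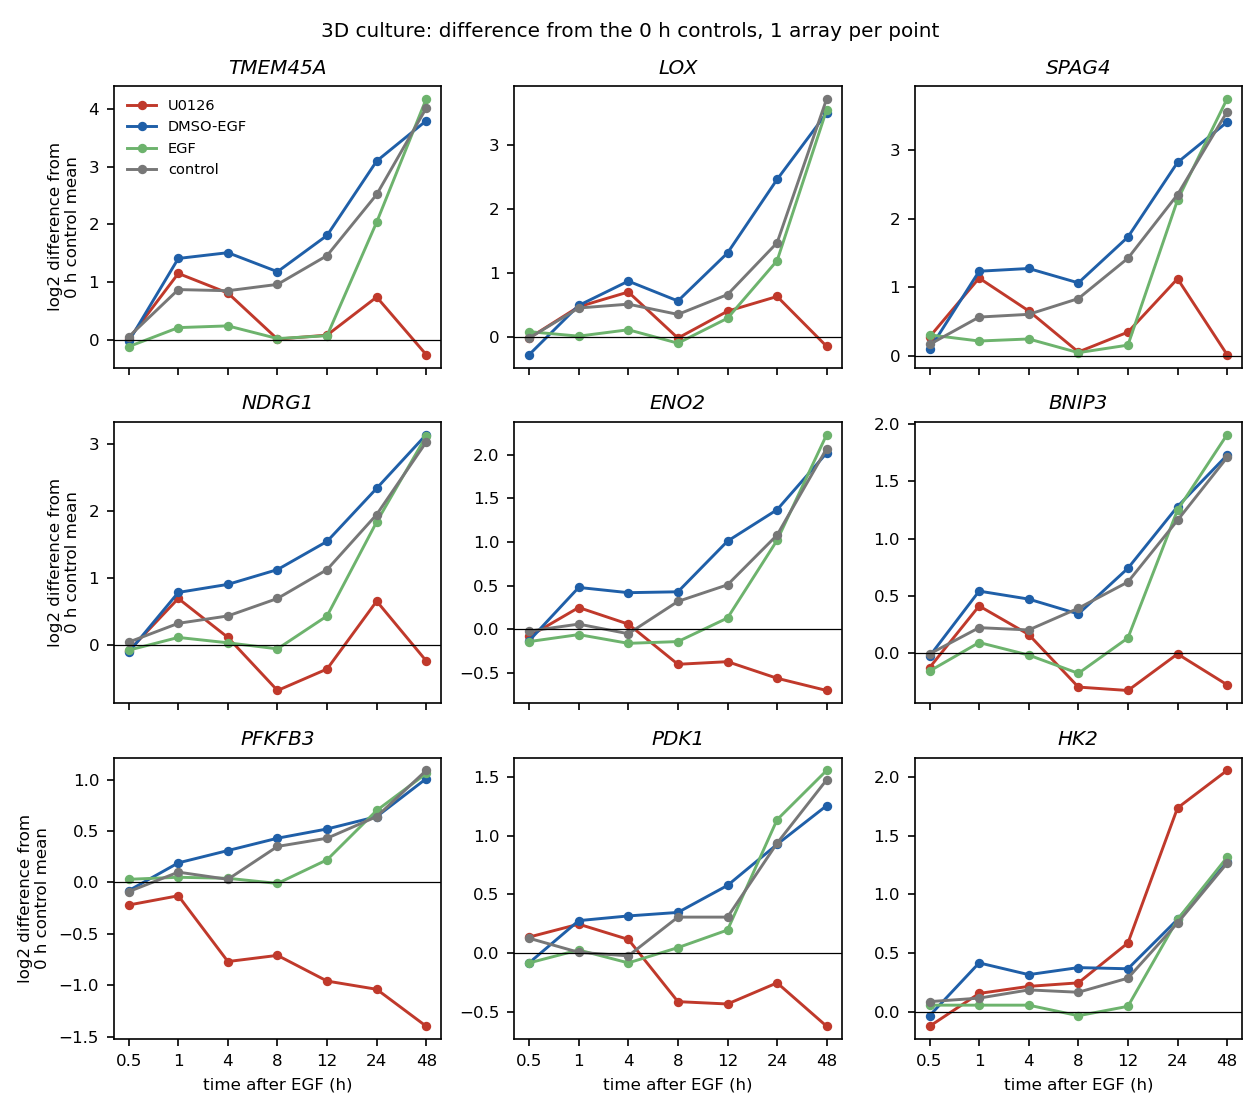
Log2 difference from the mean of the 2 control arrays at 0 h in 3D culture by time after EGF, for 9 genes and 4 arms; each point is 1 array. At 48 h the U0126 array is the lowest of the 4 arms in 8 panels and the highest for HK2.

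The difference from DMSO-EGF grew with time in 3D. For TMEM45A it was 0.04 and -0.26 at 0.5 and 1 h, then -0.70, -1.17, -1.73, -2.36 and -4.06 at 4, 8, 12, 24 and 48 h. In 2D03 and 2D04 the 48 h values of TMEM45A were 0.29 and -0.14. Over the 37 genes the median in 3D04 was -0.18 at 4 h, -0.26 at 8 h, -0.34 at 12 h, -0.49 at 24 h and -0.97 at 48 h. At 48 h 35 genes were lower with U0126 in 3D04, 18 of them by over 1, and 4.77% of all genes were lower by over 1. The same count by over 1 at 48 h was 1 in 2D03 (2.18% of all genes) and 2 in 2D04 (3.12% of all genes).

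Among HIF subunits, neither transcript was called in 3D for U0126 against DMSO-EGF or for controls against 0 h. HIF1A, counted from its 0 h controls, stood at -0.15 and -0.27 in U0126 arrays at 24 and 48 h, against -0.01 and -0.34 in DMSO-EGF arrays, so the arms overlapped (late difference -0.04, SE 0.08, limma adjusted p = 0.77). Its change in 3D controls was -0.13 (SE 0.08, limma adjusted p = 0.28). In 2D HIF1A was lower with U0126 by 0.24 on the log2 scale (difference -0.24, SE 0.08, limma adjusted p = 0.037), a small change that 5 of 8 fits with 1 array left out did not call. In the middle window of 3D HIF1A differed by -0.17 (SE 0.06, limma adjusted p = 0.072), and against EGF arrays it was called lower (-0.25, SE 0.06, limma adjusted p = 0.0079). EPAS1 differed by -0.08 in late 3D (SE 0.12) and was not called.

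The glucose transporters changed in opposite directions in the middle window of 2D culture. SLC2A1, the basal glucose transporter GLUT1, was higher with U0126 in 2D at every time from 4 to 48 h and in both series, by 0.66 to 1.05 in 2D03 and by 0.48 to 0.88 in 2D04. Its 2D differences were 0.75 in the middle window (SE 0.10, limma adjusted p = 2.7e-06) and 0.75 in the late window (SE 0.12, limma adjusted p = 3.2e-05). In 3D SLC2A1 was also above DMSO-EGF at 4, 8 and 12 h, by 0.52, 0.43 and 0.30, but stood below it at 24 and 48 h, by -0.25 and -1.53. The late 3D difference of SLC2A1 was -0.89 (SE 0.22, limma adjusted p = 0.0026), and it differed from 2D by -1.64 (SE 0.19, limma adjusted p = 4.2e-09). The 3D call rests on the 48 h array and on the probe set read: the estimate was -0.17 without the U0126 array at 48 h, and the other probe set gave -0.10. SLC2A3, the high-affinity transporter GLUT3, was lower with U0126 in the middle window of 2D (-0.65, SE 0.13, limma adjusted p = 0.0012), with -1.56 and -0.77 at 4 h in 2D03 and 2D04. At 4 h in 3D the value was -0.84, and the middle window of 3D was not called (-0.31, SE 0.17). SLC2A3 rose in controls of both cultures, by 1.18 in 3D (SE 0.21) and 0.62 in 2D (SE 0.16, lost in 5 of 8 fits with 1 array left out).

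**Figure D4:**
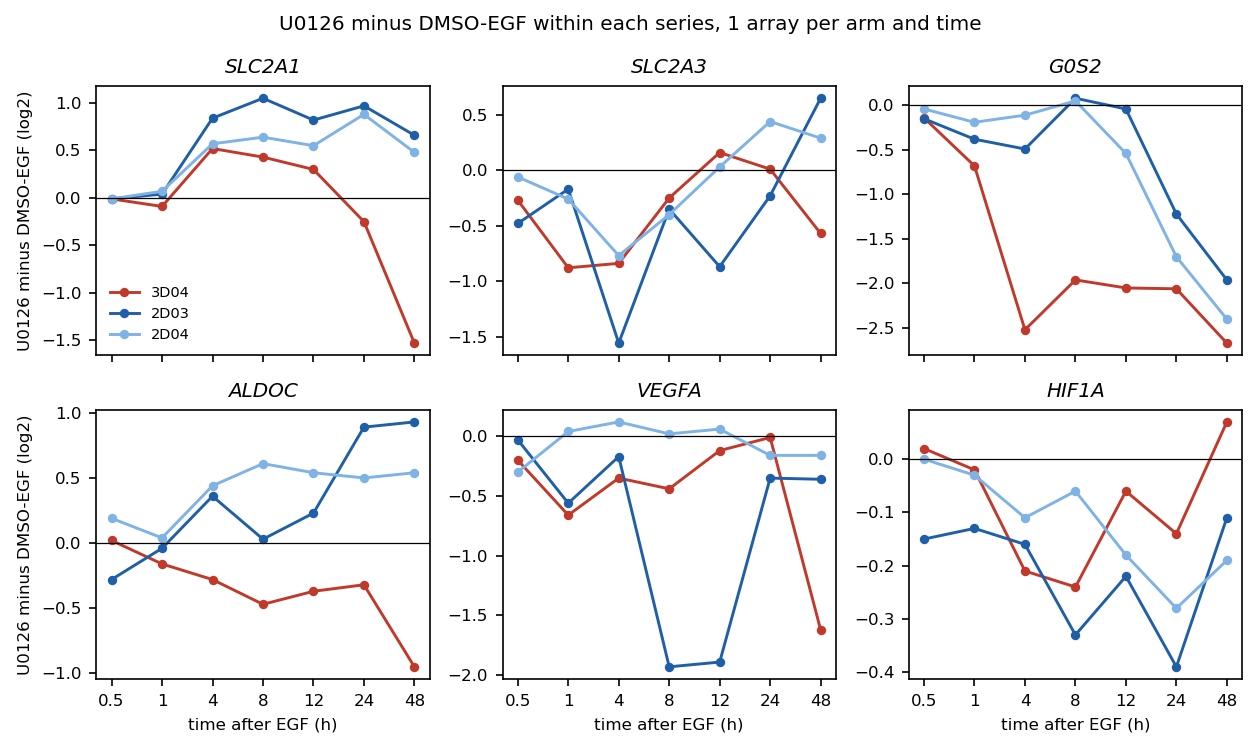
U0126 minus DMSO-EGF (log2) by time after EGF within each series for 6 genes; each point is 1 array minus 1 array. SLC2A1 is above 0 from 4 to 48 h in 2D03 and 2D04 and at -1.53 at 48 h in 3D04, and VEGFA lies at -1.93 and -1.89 at 8 and 12 h in 2D03.

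Of 15 glycolytic enzymes, 13 were lower with U0126 in late 3D culture, 1 was higher and ENO1 was not called (-0.35, SE 0.14). The median was -0.61. ENO2, the neuronal-type enolase, had the largest difference. It stood at -0.56 and -0.70 in U0126 arrays at 24 and 48 h from its 0 h controls, against 1.37 and 2.02 in DMSO-EGF and 1.08 and 2.07 in control arrays, so U0126 arrays were below the 0 h level while the others were above it (difference -2.33, 5.01-fold lower, SE 0.24, limma adjusted p = 2.3e-07). PGK1, which makes the first ATP of glycolysis, differed by -1.22 (SE 0.18), with its 6 probe sets between -1.32 and -0.10. LDHA, which converts pyruvate to lactate, stood at -0.37 and -0.63 in U0126 arrays, against 0.34 and 0.20 in DMSO-EGF and 0.24 and 0.41 in control arrays (difference -0.77, SE 0.09, limma adjusted p = 5.5e-07). The other lowered enzymes ranged from -0.99 for PFKP, the platelet-type phosphofructokinase, to -0.20 for GAPDH. In controls 9 of the 15 enzymes rose late in 3D, and PFKP, GPI, GAPDH, PGAM1, PKM and ENO1 did not pass the test (0.06 to 0.34). PFKP, GPI, GAPDH, PGAM1 and PKM were thus lower with U0126 without a called change in controls. Among the enzymes called in 3D controls, ALDOA lost its call in 4 of 4 fits with 1 array left out. HK1, TPI1 and LDHA each lost theirs in 2 of 4.

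HK2, the hexokinase that starts glycolysis, was the only 1 of the 37 genes called higher with U0126 in late 3D culture. It stood at 1.74 and 2.06 in U0126 arrays, against 0.79 and 1.28 in DMSO-EGF, 0.79 and 1.32 in EGF and 0.76 and 1.27 in control arrays, with no overlap (difference 0.87, SE 0.10, limma adjusted p = 1.0e-06). HK2 also rose in 3D controls by 1.01 (SE 0.10). Its probe sets gave 0.87 and 1.02 for the inhibitor, and 1.01 and -0.48 for the controls, so the change in controls turns its sign with the probe set. In 2D HK2 differed by -0.12 (SE 0.13) and was not called.

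ALDOC, the brain-type aldolase, was the member with the largest change in 2D controls. It stood at 0.87 and 1.88 at 24 and 48 h in 2D03 controls and at 1.57 and 2.46 in 2D04 controls, against 1.41 and 2.15 in 3D controls, each from its own 0 h mean. The change was 1.78 in 3D (SE 0.17) and 1.69 in 2D (SE 0.25), and the cultures differed by 0.08 (SE 0.18, limma adjusted p = 0.88). The effect of U0126 on ALDOC did differ: -0.64 in 3D (SE 0.17, limma adjusted p = 0.0049) and 0.72 in 2D (SE 0.25, limma adjusted p = 0.058, or 0.00024 with a replicate block), a difference of -1.35 (SE 0.18, limma adjusted p = 1.9e-07). Without the U0126 array at 48 h the 3D value of ALDOC was -0.21 and was not called.

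Among regulators of glucose use, PFKFB3, which makes the activator of phosphofructokinase, and PDK1, the kinase that shuts pyruvate dehydrogenase, were lower with U0126 in 3D. PFKFB3 stood at -1.04 and -1.40 in U0126 arrays at 24 and 48 h, against 0.64 and 1.01 in DMSO-EGF and 0.64 and 1.09 in control arrays (difference -2.05, SE 0.15, limma adjusted p = 2.3e-09). It was already -1.08, -1.14 and -1.48 below DMSO-EGF at 4, 8 and 12 h. PDK1 stood at -0.26 and -0.63 in U0126 arrays, against 0.93 and 1.26 in DMSO-EGF and 0.94 and 1.48 in control arrays (difference -1.53, SE 0.19, limma adjusted p = 2.4e-06). PFKFB4 differed by -0.55 (SE 0.22) and was not called.

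The 4 collagen-modifying enzymes were all lower with U0126 in late 3D culture and all rose in 3D controls. Beside LOX, the prolyl hydroxylases P4HA1 and P4HA2 differed by -1.29 (SE 0.22) and -0.88 (SE 0.13), and the lysyl hydroxylase PLOD2 by -0.92 (SE 0.17). P4HA2 stood at 0.12 and 0.04 in U0126 arrays, against 0.73 and 1.18 in DMSO-EGF and 0.59 and 1.17 in control arrays. In late 2D culture none of the 4 was called for U0126 without the replicate block, and with it P4HA2 was called higher (0.43, limma adjusted p = 0.049). Of the mitophagy receptors, BNIP3 stood at -0.01 and -0.28 in U0126 arrays, against 1.28 and 1.73 in DMSO-EGF and 1.16 and 1.71 in control arrays (difference -1.65, SE 0.18, limma adjusted p = 5.6e-07). BNIP3L rose in 3D controls by 1.55 (SE 0.14) and in 2D controls by 0.52 (SE 0.11), yet it stood at 1.28 and 1.21 in U0126 arrays of 3D, against 1.51 and 1.68 in DMSO-EGF arrays (difference -0.35, SE 0.14, limma adjusted p = 0.048, lost in 3 of 4 fits with 1 array left out). In 2D BNIP3L was higher with U0126 (0.39, SE 0.11, limma adjusted p = 0.014, lost in 4 of 8 fits with 1 array left out), and the cultures differed by -0.74 (SE 0.13). ERO1A, an oxidase of the endoplasmic reticulum, stood at -0.77 and -0.99 in U0126 arrays, against 0.46 and 1.09 in DMSO-EGF and 0.51 and 0.88 in control arrays (difference -1.66, SE 0.15, limma adjusted p = 4.0e-08).

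VEGFA, the vessel growth factor, rose in 3D controls by 1.28 (SE 0.28, limma adjusted p = 0.0032). With U0126 it stood at 1.29 and 0.59 at 24 and 48 h in 3D, against 1.30 and 2.21 in DMSO-EGF and 0.66 and 1.91 in control arrays, so the arms differed at 48 h and not at 24 h. The late difference of VEGFA was -0.82 (SE 0.28, limma adjusted p = 0.026), and it was 0.11 without the U0126 array at 48 h. Its 4 probe sets gave -0.82 to -0.07. ADM, which encodes the vasodilator adrenomedullin, rose in 3D controls by 1.00 (SE 0.34, limma adjusted p = 0.044, lost in 3 of 4 fits with 1 array left out) and differed with U0126 by -0.73 (SE 0.34, limma adjusted p = 0.11). The feedback hydroxylase EGLN3 and the histone demethylase KDM3A rose in 3D controls by 0.72 (SE 0.11) and 0.96 (SE 0.12), and their late differences with U0126 were -0.14 (SE 0.11) and -0.30 (SE 0.12), neither called.

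G0S2, an inhibitor of the lipase that breaks down stored fat, went with the inhibitor and not with time. In 3D it stood at -2.42 and -2.75 in U0126 arrays at 24 and 48 h, against -0.36 and -0.08 in DMSO-EGF and -0.01 and -0.19 in control arrays, and the U0126 arrays were already at -2.75, -2.13 and -2.33 at 4, 8 and 12 h. In 2D the U0126 arrays stood at -1.54 and -2.67 in 2D03 and -1.65 and -2.62 in 2D04, against -0.32 and -0.71 in 2D03 and 0.06 and -0.22 in 2D04 with DMSO-EGF, with no overlap. The late difference of G0S2 was -2.37 in 3D (SE 0.16, limma adjusted p = 1.0e-09) and -1.82 in 2D (SE 0.16, limma adjusted p = 7.2e-11), and the cultures differed by -0.55 (SE 0.24, limma adjusted p = 0.15). In the middle window it was -2.18 in 3D (SE 0.13) and -0.17 in 2D (SE 0.13, not called), a difference of -2.0 (SE 0.19, limma adjusted p = 6.2e-11). The change of G0S2 in controls was -0.10 in 3D (SE 0.16) and was not called.

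The change in 3D controls and the difference with U0126 share no arrays, although they share 1 estimate of the spread. Of 27 genes raised in controls, 22 (81.5%) were lower with U0126, near the 75.7% of all 37 genes that were lower, and 6 of the 10 genes not raised were lower too. The 22 genes were 78.6% of the 28 genes lower with U0126. Over all genes 297 were in both lists, 26% of the 1141 raised in controls and 13.5% of the 2194 lower with U0126. Across the 37 genes, which are not independent replicates and were measured on the same arrays, the differences with U0126 and the changes in controls had Pearson r = -0.65 and Spearman rho = -0.50 in 3D, and r = 0.15 and rho = 0.24 over all genes. In 2D the members gave r = 0.38 and rho = 0.30, and all genes gave r = 0.30 and rho = 0.32. SLC2A3, HK2, EGLN3, KDM3A and ADM rose in 3D controls and were not called lower with U0126.

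**Figure D5:**
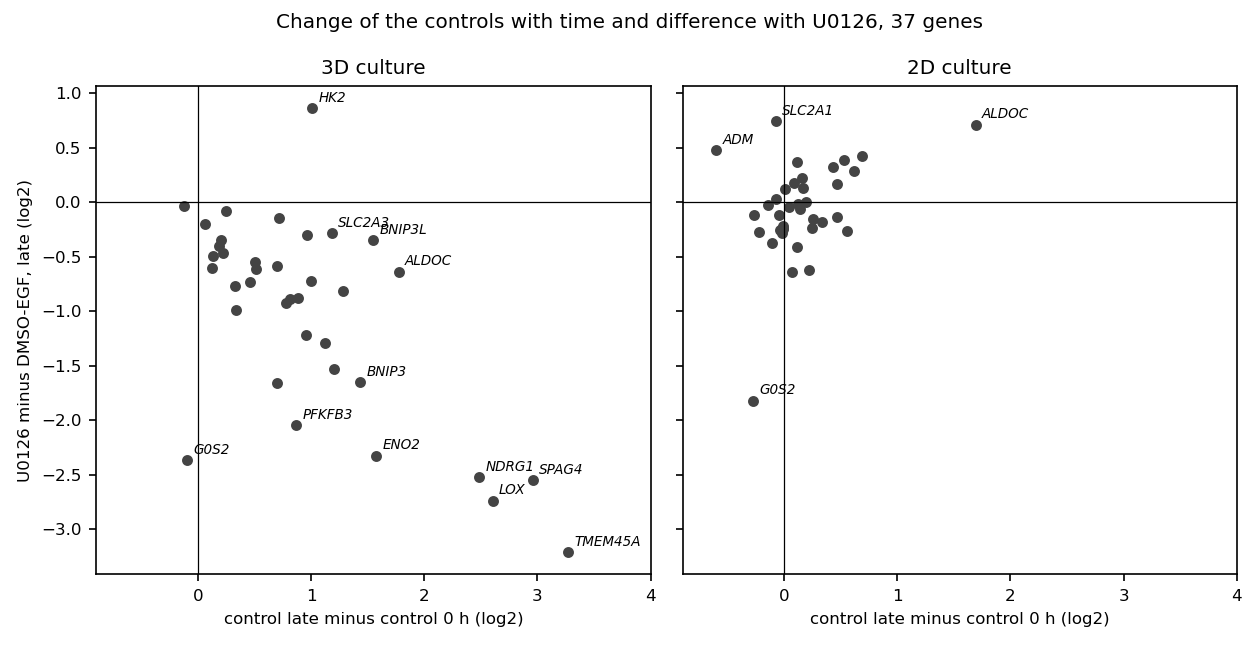
U0126 minus DMSO-EGF in the late window (log2) against control late minus control 0 h (log2), in 3D and in 2D; each point is 1 of 37 genes. In 3D TMEM45A lies at 3.27 on the horizontal and -3.21 on the vertical axis, HK2 is the only point above 0, and G0S2 is low at -0.10 on the horizontal axis.

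In the middle window the 3D result depended on which EGF arm was used. U0126 minus DMSO-EGF called 11 of the 37 genes lower and 1, EGLN3, higher (median -0.27, 15.9% of all genes called and 8.47% as lower), and 4 genes in all were called without the U0126 array at 12 h. The largest differences were those of G0S2 (-2.18), NDRG1 (-1.50, SE 0.28), PFKFB3 (-1.23, SE 0.12) and TMEM45A (-1.20, SE 0.37), whose call was lost in 5 of 6 fits with 1 array left out, as was that of SPAG4 (-1.01, SE 0.32). Of these 37 genes, 9 were more negative in 3D than in 2D and 0 more positive (2.50% of all genes called and 0.972% as more negative). Against the EGF arm without DMSO, 4 genes were lower and 3 higher in 3D (20% of all genes called): G0S2 (-2.29), PFKFB3 (-0.90), ERO1A (-0.36) and HIF1A (-0.25) were lower and SLC2A1 (0.72), EGLN3 (0.62) and HK2 (0.33) were higher. Against untreated controls 5 genes were lower and 1 higher (17.1% of all genes called). The EGF arrays of 3D stood apart from the other arms without inhibitor: TMEM45A was at 0.02 and 0.07 at 8 and 12 h with EGF, against 0.96 and 1.46 in control arrays, while DMSO-EGF arrays were at 1.18 and 1.81. Over the 37 genes the medians from the 0 h controls at 8 and 12 h were -0.01 and 0.01 in U0126, 0.24 and 0.41 in DMSO-EGF, -0.01 and 0.08 in EGF and 0.19 and 0.29 in control arrays. EGF minus control had a median of -0.17 in the middle window of 3D, negative for 36 of 37 genes, and DMSO-EGF minus EGF had a median of 0.28, but neither comparison called a member. In the late window the choice of arm moved the count little, with 28 genes called against EGF and 26 against control arrays. The shares of all genes called against these arms are not given here, and against DMSO-EGF the share was 39.5%.

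EGF itself left no called change here. In the middle and late windows of both cultures EGF minus control called 0 of the 37 genes and 0% of all genes in limma, and so did DMSO-EGF minus EGF in the late window. At an unadjusted p under 0.05, EGF minus control gave 387 genes in the middle window of 3D and 422 in the late window, of which 9 and 0 were members, and 225 and 55 genes in 2D, with 1 and 0 members. DMSO-EGF minus EGF gave 302 genes in late 3D and 100 in late 2D culture at that threshold, with 0 members in each. In the early window U0126 called 0 members in 3D (0.318% of all genes), 0 in 2D (0.0168%) and 0 between the cultures (0.0838%). Controls of the middle window also gave 0 calls among members in 3D (0.134% of all genes) and in 2D (0.101%), with 35 of 37 differences positive and a median of 0.20 in 3D.

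The 2D comparisons held small changes that the replicate block brought out. The repeats of a group were paired through the 2D series, and with that block the late inhibitor comparison called 14 of the 37 genes (24.7% of all genes) where 5 were called without it. The middle one called 12 (19.4% of all genes) where 2, SLC2A1 and SLC2A3, were called without the block (7.25% of all genes). With the block LDHA (-0.24), ERO1A (-0.62) and PFKFB3 (-0.64) were lower in late 2D culture, and KDM3A (0.37), ADM (0.48) and P4HA2 (0.43) were higher. Without the block the 5 late calls were SLC2A1, BNIP3L, HIF1A, G0S2 and PFKP (-0.38, SE 0.10). The 2 series also drifted apart: the median change of controls was -0.02 in 2D03, with 18 of 37 genes higher, and 0.17 in 2D04, with 31 higher. NDRG1 stood at 0.23 at 48 h in 2D03 controls and at 1.29 in 2D04 controls, against 3.03 in 3D. With the block, 9 genes were called in 2D controls (14.3% of all genes), 8 higher and ADM lower (-0.60).

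RNA quality differed on a pair of 2D arrays. The 5-prime minus 3-prime signal of the actin control was -1.26 and -1.08 on the U0126 arrays of 2D03 at 8 and 12 h, against -0.36 to 0.31 on the other 94 arrays. On that pair VEGFA was -1.93 and -1.89 below DMSO-EGF, against 0.02 and 0.06 in 2D04, and LOX was at -1.22 and -0.98, against 0.11 and -0.28. Without the pair the middle 2D comparison called SLC2A1 (0.61), SLC2A3 (-0.71) and PFKFB3 (-0.75), and ERO1A was -0.10 (SE 0.19), where it was -0.54 (SE 0.20) with all arrays. Without the pair, SPAG4 was not called among the middle differences between 3D and 2D (-0.95, SE 0.29, limma adjusted p = 0.083), and 8 of the 9 genes were. The fits of 3D alone and the late arrays do not include that pair, although the 2D and joint fits share 1 estimate of the spread over all their arrays. Within 3D the U0126 arrays at 24 and 48 h had the lowest actin values, -0.09 and -0.14. The other 3D arrays lay between -0.02 and 0.14. Whether RNA quality bears on the late 3D differences was not tested. Values are relative to an unknown reference for each probe set, so no gene was shown to be present or absent and the markers of the line could not be checked.

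Other HIF targets were a list of 28 genes with 24 measured, also chosen with earlier results of these data known. They went the same way in 3D controls: 16 rose and 0 fell, with a median of 0.75, where 9.56% of all genes rose. MXI1, a MYC antagonist, rose by 1.69 (SE 0.18), the ribonuclease ANG by 1.22 (SE 0.13) and INSIG2, a brake on sterol synthesis, by 1.51 (SE 0.17). With U0126 in late 3D culture 13 of the 24 were lower and 4 higher (median -0.35), where 18.4% of all genes were lower and 21.1% higher, among them the transferrin receptor TFRC (-2.39, SE 0.17), the lipoprotein receptor VLDLR (-2.35, SE 0.20) and the demethylase JMJD6 (-1.48, SE 0.15). DDIT4, an mTOR inhibitor, rose in 3D controls by 2.44 (SE 0.43) and was higher, not lower, with U0126 by 1.24 (SE 0.43, limma adjusted p = 0.026). Between the cultures 12 of the 24 were more negative with U0126 in 3D and 0 more positive, where 6.02% of all genes were more negative.

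For the HIF regulators and neighbouring pathways, the shares to set the counts against are 9.56% of all genes raised and 12.2% lowered in 3D controls, and 21.1% higher and 18.4% lower with U0126 in late 3D. Of 13 measured HIF regulators, 2 rose in 3D controls, the main oxygen sensor EGLN1 (0.87, SE 0.12) and CITED2, a competitor for HIF's coactivator (0.60, SE 0.13). With U0126 EGLN1 was lower (-1.01, SE 0.12) and ARNT2, a HIF partner subunit, and CITED2 were higher (2.10, SE 0.20, and 0.80, SE 0.13). Of 12 other glycolysis genes, 0 rose and 1 fell in 3D controls, and 3 were higher and 3 lower with U0126, with PFKFB2 at 1.45 (SE 0.17), PFKM, the muscle-type phosphofructokinase, at 0.48 (SE 0.08) and BPGM at -0.70 (SE 0.11). Of 21 pyruvate dehydrogenase and citric acid cycle genes, 0 rose and 5 fell in 3D controls, with the smallest adjusted p for IDH3A (-0.60, SE 0.11) and CS, citrate synthase (-0.28, SE 0.07). With U0126, PDK4 and PDK2, which restrain pyruvate dehydrogenase as PDK1 does, were higher by 1.38 (SE 0.11) and 1.32 (SE 0.15), and PDK3 was lower (-1.18, SE 0.20), so members of the PDK family moved in both directions. Of 6 pentose phosphate genes, 2 were higher and 2 lower with U0126 in 3D.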

How the data were processed

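Affymetrix arrays of 96 samples were read from the deposited table, whose values are presumed to be log2 because the authors' processing notes, per the labels, name RMA; neither log base, centring reference nor annotation build is given in the sources used here. Array medians lay between -0.06 and 0.03 and values between -5 and 5.7, so only differences between arrays are given and folds assume log2. Of 22930 probe sets, 524 were array controls, 125 had several symbols (2 name a member) and 2866 were unlisted. The number of arrays limits the precision. Limma 3.58.1 (R 4.3.3; lmFit, eBayes with trend) was fitted across all 11940 genes, with Benjamini-Hochberg adjustment and a threshold of 0.05: group means in 2D (33 residual degrees of freedom), time plus arm within window in 3D (13, times serving as repeats), and all 96 arrays jointly for 3D minus 2D (50). Standard errors (SE) come from these fits. The procedure was tested on simulated data. The repeats' deviations correlated in all 465 pairs of 2D groups (0.228 to 0.818), so series pairs them. Gene symbols were updated through RefSeq. Members and lists were chosen with earlier results of these data known. Values by array were given for the 12 called members with the smallest adjusted p over the inhibitor and control comparisons, and for HIF1A, SLC2A1, LDHA and VEGFA. Those of LOX, HK2 and PDK1 were added after their values were seen. From each other list up to 3 genes with the smallest adjusted p per comparison were eligible, and DDIT4 was added after its values were seen. DUSP6 and EGR1 were the check of the inhibitor. No 2 arrays were identical (highest r 0.978).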

Additional observations from a re-analysis of the deposited data

Results flagged for a closer look

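The effect of U0126 differed between 3D and 2D culture by the test of the difference itself for 9 genes in the middle window. The log2 values of U0126 minus DMSO-EGF in 3D less those in 2D were ALDOC (-0.742), ENO2 (-0.917), KDM3A (-0.637), P4HA1 (-0.562), BNIP3 (-0.562), NDRG1 (-1.33), TMEM45A (-1.45), G0S2 (-2.0) and SPAG4 (-0.972).

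In the late window 25 genes had a more negative difference in 3D. These included SLC2A1 (-1.64), HK1 (-0.55), GPI (-0.385), PFKP (-0.61), ALDOC (-1.35), TPI1 (-0.46), PGK1 (-0.988), PGAM1 (-0.393), ENO2 (-2.19), PKM (-0.495), LDHA (-0.532), PFKFB3 (-1.41) and PDK1 (-1.12). The others were KDM3A (-0.67), ADM (-1.21), P4HA1 (-1.14), P4HA2 (-1.30), PLOD2 (-1.04), LOX (-2.46), BNIP3 (-1.53), BNIP3L (-0.735), NDRG1 (-2.26), TMEM45A (-3.44), SPAG4 (-2.72) and ERO1A (-1.04). HK2 was the 1 gene with a more positive difference in 3D (0.98).

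The change of controls between 0 h and the late window was larger in 3D than in 2D for 20 genes. These were SLC2A1 (0.882), HK2 (1.27), PFKP (0.443), TPI1 (0.685), PGK1 (0.71), ENO2 (1.11), LDHA (0.333), PDK1 (1.09), EGLN3 (0.632) and KDM3A (0.85), and further VEGFA (1.31), ADM (1.60), P4HA1 (0.865), PLOD2 (0.775), LOX (2.62), BNIP3 (1.48), BNIP3L (1.02), NDRG1 (1.93), TMEM45A (3.11) and SPAG4 (2.49). Culture and series cannot be told apart in any of these values.

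Among the 4 control arrays of 2D at 0 h, 1 array stood apart for HK2 (0.83, against 0.43 to 0.47 on the others), with a gap of 0.9 of the whole range. PDK1 had -0.57 on 1 array, against -0.05 to -0.01 on the others, a gap of 0.929 of the range. Both are the same array of 2D04. Chance alone sets apart about 1 in 20 groups by this measure.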

How the results depend on the processing

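The late 3D counts of called members moved by less than 1.5 times under each alternative with all arrays: 27 to 32 for U0126 (29 as reported), 25 to 27 for its difference from 2D (26) and 27 to 29 for controls (27). The 2D counts, small changes in 2 series that differ, moved most. For U0126 in the middle window (2 as reported) they were 4 with the mean of probe sets or quantile normalization, 12 with a replicate block, 13 in series 2D03 alone, 8 in 2D04 alone, 16 in a joint fit of both cultures, 5 with the block and without the pair of low-quality arrays, 4 against EGF and 1 against control arrays. For U0126 in the late window (5) they were 8 in the upper 60% of genes by SD, 14 with the block, 8 in 2D03, 17 in 2D04 and 16 in the joint fit. For late 2D controls (5) they were 9 with the block, 1 in 2D03, 15 in 2D04 and 11 in the joint fit. Middle controls (0) gave 1 in 3D with quantile normalization, 3 with array weights and 1 with the joint fit, and 2 in 2D04 alone and 1 with the joint fit in 2D. U0126 in the middle window of 3D (12) gave 19 with array weights, 7 against EGF and 6 against control arrays. The block changed no other count by over 1.5 times. It also raised the share of all genes called in 2D. For U0126 the share went from 7.25% to 19.4% in the middle window and from 12.4% to 24.7% in the late window. For late controls it went from 4.16% to 14.3%. Shares under the other alternatives, and with 1 array left out, are not given in this section. These counts are thus not read as a result about these genes. The comparisons with EGF and control arrays, and the block without the low-quality pair, were chosen after seeing the data.

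Leaving out 1 array at a time, over 78 arrays, gave 23 to 34 genes for U0126 in late 3D, 4 to 12 in middle 3D, 3 to 6 in late 2D and 2 to 9 in middle 2D. For 3D minus 2D it gave 13 to 31 late and 6 to 11 in the middle window. For late controls it gave 19 to 26 in 3D, 1 to 6 in 2D and 11 to 21 for their difference, and 0 in every other comparison. Among 2279 results of single called genes under alternatives, 2079 kept direction and call, 196 kept direction only and 4 changed sign. The sign changed for KDM3A (0.11), TMEM45A (0.19) and SPAG4 (0.20) in middle 3D against EGF. VEGFA in late 3D ranged from -1.74 to 0.11 with 1 array left out. The cause was not tested. Late 3D calls for U0126 of SLC2A1, BNIP3L, GAPDH, VEGFA, ALDOC and GPI were lost without at least 1 array. In late 3D controls the same held for ADM, ALDOA, HK1, LDHA, P4HA1, PLOD2, SLC2A1, TPI1 and VEGFA. In 3D each arm and time had 1 array, which limits the precision.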
